A study of Mus musculus with 18 samples.

Results

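Cortex of Dp16 mice was compared with cortex of wild-type (WT) mice across all expressed genes. The comparison takes in 12 of the 18 libraries of the series, 6 labelled Dp16 and 6 labelled wild-type C57BL/6J, chosen by genotype label alone. Of 55385 genes in the count table, 18717 passed the filter on low counts, and of these 18602 lie outside the duplicated segment and 115 inside it. The Dp16 mouse carries an extra copy, in tandem, of the part of chromosome 16 that corresponds to most of the long arm of human chromosome 21, and is kept as a model of trisomy 21 (Down syndrome). Each group held 3 males and 3 females of 17.1 to 18.0 weeks of age, with no treatment, and every library carries its own label as a sample of brain cortex. The labels do not say how the animals relate to each other, so the p-values measure the spread between these samples. The labels give the strain of the WT animals and give Dp16 by that name alone, and the breeding is not stated. The remaining 6 libraries, Dp16_2xIFNRs, carry the duplication with the interferon receptor genes returned to the normal copy number. They helped to estimate the spread between samples and enter 1 further comparison near the end.

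The duplicated segment is present in 3 copies in every cell of a Dp16 mouse from conception. Genes inside it tend to give more RNA in proportion to their copies, while genes elsewhere keep their normal copy number. Among the segment's genes are 4 interferon and interleukin receptor chains (Ifnar1, Ifnar2, Ifngr2 and Il10rb), which is why genes induced by interferons, such as antiviral effectors and the histocompatibility (MHC) molecules that present peptides to T cells, are of interest in this model. In bulk tissue, fewer cells of a type and less RNA per cell cannot be told apart.

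Polyadenylated RNA was sequenced, and library totals ran from 47554526 to 52006799 counts in WT and from 46346019 to 67281449 in Dp16. Markers of cortical excitatory neurons were high in every library, with Slc17a7, a vesicular glutamate transporter, from 1330 to 1699 CPM (a gene's counts scaled to a library of 1000000) in WT and from 1317 to 1533 CPM in Dp16. Some libraries carried more RNA of neighbouring tissue. Transthyretin (Ttr), made by choroid plexus, was at 178 CPM in WT replicate 5 and 351 CPM in Dp16 replicate 3, and at most at 35.0 and 15.2 CPM in the other libraries of those groups. WT replicate 6 had the lowest summed CPM of its group for the lists of microglia, border macrophages, brain endothelium, pericytes and meningeal fibroblasts. It was also lowest for lists of other kinds, among them excitatory neurons (7351 CPM, group median 8388) and homeostatic astrocytes (10779 against 14460). Mitochondrially encoded genes were lowest there as well (48069 against 63394), while immediate early genes of neuronal activity were highest there. Some lists and called genes are therefore also given with those 3 libraries (WT replicates 5 and 6 and Dp16 replicate 3) left out together.

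CPM is used to compare a gene between libraries, while RPKM divides further by gene length and is used where levels of different genes are set side by side. A gene was called changed if its p from edgeR's quasi-likelihood test, adjusted for the 18717 genes by the Benjamini-Hochberg method, was below 0.05, and a log2 fold change of 1 is a doubling. Fold changes are Dp16 over WT, so positive values are higher in Dp16.

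Inside the segment, RNA was higher by close to the ratio of 3 copies to 2. The median log2 fold change of the 115 tested genes was 0.55. The test called 68 of 115 higher (59.1%) and 0 lower, and for 62 (53.9%) every Dp16 library lay above every WT library. The segment's median, taken within each library relative to the WT mean on the log2 scale, lay between 0.53 and 0.58 in the Dp16 libraries, against -0.015 to 0.014 in the WT libraries. The median was alike along the segment. In order of position, the first 38 genes (Rbm11 to 2810407A14Rik) had a median fold of 1.46, the middle 38 (Grik1 to Smim11) also 1.46, and the last 39 (Rcan1 to Zbtb21) again 1.46. Spread depended on level: the middle 50% of folds lay between 1.40 and 1.52 for the 64 genes of at least 10 CPM, and between 1.30 and 1.90 for the 28 genes under 1 CPM. All 68 called genes were protein-coding. None of the 24 other tested gene models was called, at a median log2 change of 0.54.

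The 6 called segment genes of highest RPKM were spread along it. Sod1, the cytosolic superoxide dismutase (chr16:90220754-90226329), was at 282 ± 17.7 RPKM in WT and 401 ± 20.5 RPKM in Dp16 (SD, n = 6), a log2 fold change of 0.50 (SE 0.0488, adjusted p = 2e-06). Pcp4, a calmodulin-binding peptide abundant in striatum and cortex (chr16:96467606-96525793), was at 234 ± 31.5 RPKM in WT and 367 ± 66.98 RPKM in Dp16 (SD, n = 6), a log2 fold change of 0.64 (SE 0.118, adjusted p = 0.00949). Pcp4 varied most, its lowest Dp16 library being below the highest WT library. App, the amyloid precursor (chr16:84949685-85173766), was at 230.4 ± 15.2 RPKM in WT and 340.4 ± 23.7 RPKM in Dp16 (SD, n = 6), a log2 fold change of 0.56 (SE 0.0538, adjusted p = 1.7e-06). Atp5o, a subunit of mitochondrial ATP synthase (chr16:91925214-91931687), was at 142 ± 7.45 RPKM in WT and 212 ± 9.65 RPKM in Dp16 (SD, n = 6), a log2 fold change of 0.56 (SE 0.0471, adjusted p = 2.07e-07). For both the groups were apart. Atp5j, a further ATP synthase subunit (chr16:84827866-84835625), was at 86.7 ± 3.94 RPKM in WT and 132 ± 5.13 RPKM in Dp16 (SD, n = 6), a log2 fold change of 0.59 (SE 0.0427, adjusted p = 3.21e-08). Ttc3, a ubiquitin ligase (chr16:94370618-94469343), was at 81.9 ± 6.41 RPKM in WT and 119 ± 6.86 RPKM in Dp16 (SD, n = 6), a log2 fold change of 0.54 (SE 0.0497, adjusted p = 9.57e-07). The groups were apart for these as well, although Dp16 replicate 4 was the lowest Dp16 library for Ttc3, at 1276 CPM.

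A few segment genes departed from 1.5-fold. Among those of at least 1 CPM, the highest log2 fold changes were those of Clic6, a chloride channel protein of epithelia, of Chodl, a membrane lectin, and of Eva1c, a guidance receptor. Clic6 was between 1.51 and 7.42 CPM (median 2.63) in WT and between 2.69 and 19.9 CPM (median 4.06) in Dp16 and missed the test (a log2 fold change of 1.12 with an SE of 0.561, adjusted p = 0.605). The highest Dp16 library was replicate 3, which also held most Ttr, and without it the log2 fold change was 0.38 with an adjusted p of 0.913. Chodl was at 0.99 (SE 0.287, adjusted p = 0.178), overlapping between groups, and was called by DESeq2 alone of the settings tried (adjusted p = 0.0388). Eva1c rose: it was between 1.64 and 2.14 CPM (median 1.76) in WT and between 2.34 and 3.59 CPM (median 3.17) in Dp16 (a log2 fold change of 0.79 with an SE of 0.111, adjusted p = 0.000290), with the groups apart. The lowest were the pseudogene Gm9843 at -0.036 (SE 0.101, adjusted p = 0.969), the cilium gene Lca5l at 0.12 (SE 0.167, adjusted p = 0.926) and the endothelial transcription factor Erg at 0.16 (SE 0.0931, adjusted p = 0.683). All 3 overlapped between groups.

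**Figure D1:**
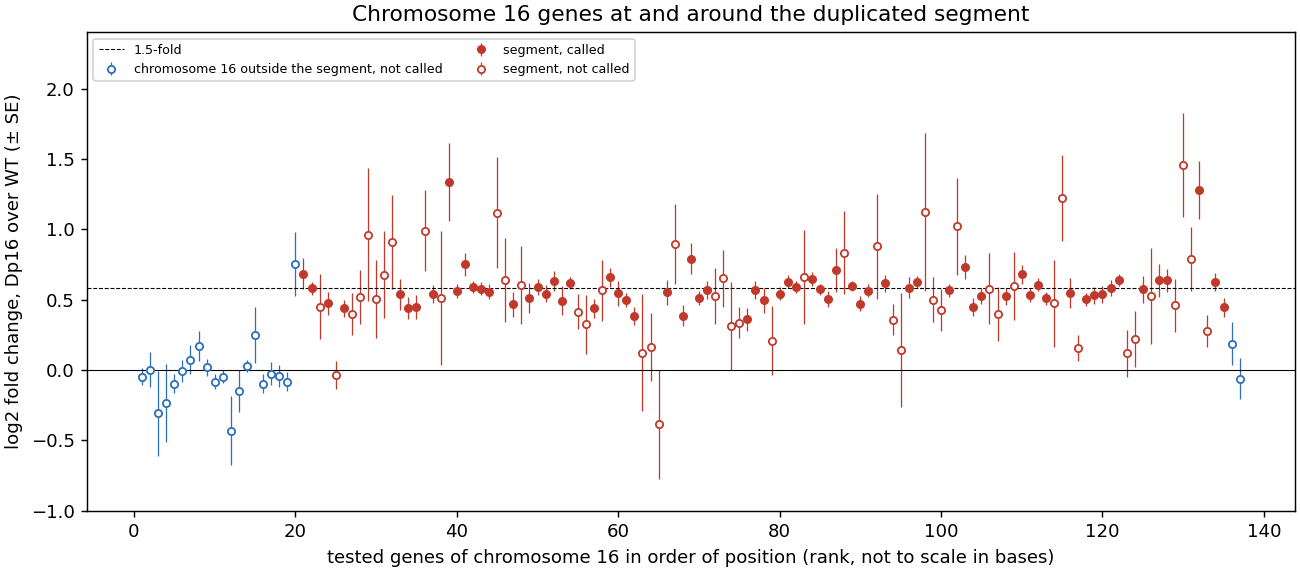
Log2 fold change, Dp16 over WT, with its standard error (y axis) for the 20 tested genes before the segment, the 115 tested in it and the 2 beyond it, in order of position (x axis). Filled points were called; the dashed line marks 1.5-fold. Except for Gm49678, the nearest gene before the segment, values outside it lie below those of most genes inside it, and open points inside it have long error bars or low folds.

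Beyond the segment's ends most tested genes lay close to WT, apart from Gm49678, the nearest gene before it. On chromosome 16 before the segment, 452 genes had a median log2 change of 0.0044, and 1 was called (Tbx1, lower). The 8 tested genes nearest the proximal boundary were, from far to near, Htr1f, Chmp2b, Vgll3, Cadm2, Gbe1, Robo1, Robo2 and Gm49678. Their log2 fold changes were -0.15, 0.029, 0.25, -0.097, -0.025, -0.041, -0.083 and 0.75. The axon guidance receptors Robo1 and Robo2 lie 2494419 and 1128689 bases from it. Gm49678, a noncoding model 93221 bases from the boundary, was highest of these 8, from 0.247 to 0.511 CPM in WT and from 0.505 to 0.787 CPM in Dp16, and missed the test (SE 0.226, adjusted p = 0.202), with 5 of 6 Dp16 libraries above WT. Beyond the distal end, B230307C23Rik (a log2 fold change of 0.19 with an SE of 0.152, adjusted p = 0.815) and A630089N07Rik (a log2 fold change of -0.061 with an SE of 0.147, adjusted p = 0.966) were the only tested genes, and neither was called.

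Across the rest of the genome most genes sat close to WT. Of 18602 genes outside the segment, 72 were called (0.387%), 51 higher (0.274%) and 21 lower (0.113%). The median log2 fold change was -0.0024, and 49.0% of genes were above WT. Among the 14494 genes of at least 1 CPM, 94.6% lay within 1.2-fold of WT and 85 beyond 1.5-fold. Of the 72 called genes, 38 lay within 1.5-fold of WT, 16 lay beyond 2-fold and 15 had a mean below 1 CPM. Before adjustment, 845 genes were higher (4.54%) and 715 lower (3.84%) at p below 0.05. Groups were apart, meaning that every library of one lay beyond every library of the other, with Dp16 higher for 73 genes (0.392%), 35 of them called, and with Dp16 lower for 37 genes (0.199%), 11 of them called. Of the 72 calls, 31 (24 higher, 7 lower) remained whichever 1 of the 12 libraries was left out. The other 41 ended without at least 1 library, and for each gene the library without which its adjusted p was highest is given with it. Without WT replicate 6 the test called 66 genes, 35 higher and 31 lower, 46 of them among the 72. With WT replicates 5 and 6 and Dp16 replicate 3 all left out it called 46, 28 higher and 18 lower, 31 of them among the 72. A fit of the 12 libraries alone called fewer genes than the 72, and DESeq2 called more, as counted in the section on processing. Medians of gene lists shifted with single libraries. Of 48 lists, 42 had a median that changed sign (17 lists) or moved by over 1.5 times without 1 library. The 6 that did neither were type I interferon-stimulated genes, MHC class I, red blood cells, ependyma, potassium channels and the circadian clock.

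**Figure D2:**
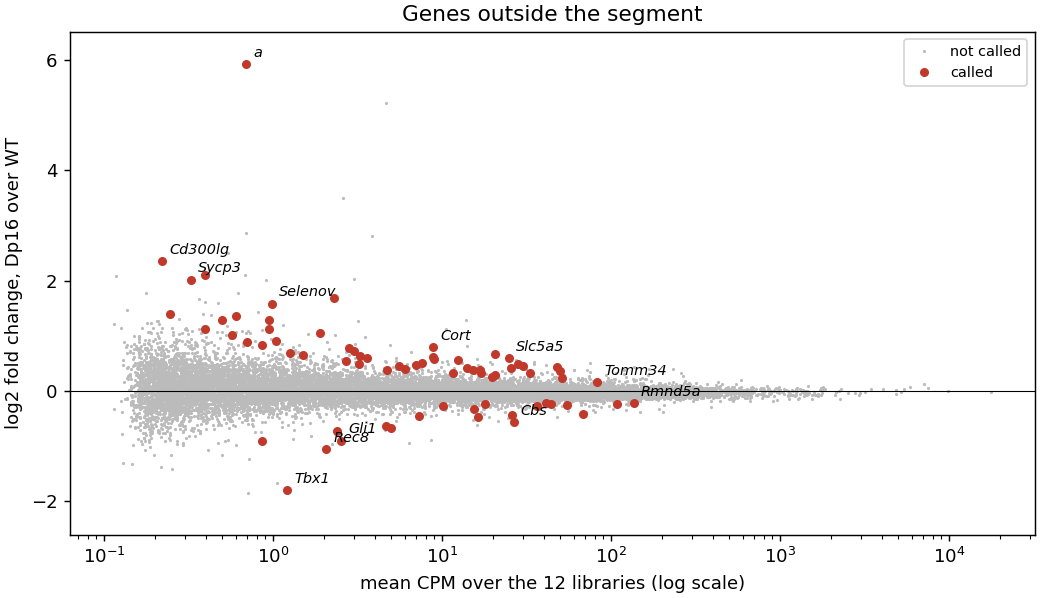
Log2 fold change, Dp16 over WT (y axis), against the mean CPM of the 12 libraries (x axis, log scale) for the 18602 genes tested outside the segment. Red points are the 72 called genes; called genes of high level have small folds, such as Tomm34 at 0.16, and among called genes the largest folds belong to low ones. Grey points far above 0 were not called.

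The called genes lay on 18 chromosomes, and the median log2 fold change per autosome ran from -0.013 to 0.013. The share of genes at an unadjusted p below 0.05 ran from 6.75% to 10.3% per autosome. Of the 72, 17 (23.6%) had another called gene within 1000000 bases, against 12.7% of the genes that were not called. Some neighbours moved in opposite directions, as Kcnab3 (lower) and Alox8 (higher) on chromosome 11, 128415 bases apart, and Rec8 (lower) and Cideb (higher) on chromosome 14, 128655 bases apart. Smyd1 (higher) and Rmnd5a (lower) lie 66401 bases apart on chromosome 6. Cyp11a1 and the noncoding model Gm17322, which overlap on chromosome 9, were both lower, and without the strand setting of the counting their reads cannot be told apart.

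The smallest p outside the segment belonged to the agouti gene, named a (chr2:154791402-155051012), which encodes a paracrine antagonist of melanocortin receptors known from coat colour. It had 0 to 2 counts per library in WT and 59 to 86 in Dp16, which is at most 0.0415 CPM in WT and from 1.27 to 1.59 CPM in Dp16. The groups were far apart, and the fitted log2 fold change of 5.92 (SE 0.326, adjusted p = 1.56e-09) rests on few WT counts. The annotated gene is long, and reads of genes within its span may be counted with it, which was not tested. As the labels give no strain for Dp16, background and duplication cannot be told apart at this gene.

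Slc5a5, the sodium-iodide symporter (chr8:70882889-70892757), had the next smallest p. It was between 18.6 and 21.0 CPM (median 19.7) in WT and between 27.0 and 32.9 CPM (median 29.6) in Dp16 (a log2 fold change of 0.59 with an SE of 0.0674, adjusted p = 1.33e-05). Both groups were narrow and apart. The gene is listed here among choroid plexus markers. In the libraries of highest Ttr, WT replicate 5 held 20.3 CPM of Slc5a5 against a WT maximum of 21.0. Dp16 replicate 3 held 31.5 CPM, with only Dp16 replicate 2 higher at 32.9. Of the 15 tested choroid plexus genes 14 were above WT, at a median log2 change of 0.29, and Slc5a5 alone was called. The list's median rested on the libraries of highest Ttr, being 0.78 without WT replicate 5, -0.17 without Dp16 replicate 3 and 0.057, with 8 of 15 above WT, with all 3 libraries left out. Slc5a5 was called by edgeR then (log2 fold change 0.57, adjusted p = 0.00102). The part of choroid plexus RNA in its rise was not tested.

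Most genes induced by interferons lay above WT, by small folds. Of 51 tested type I interferon-stimulated genes outside the segment, 47 were above WT, 16 at an unadjusted p below 0.05, all of these higher, and the median log2 fold change was 0.25, against -0.0024 over all genes outside the segment. The test called 3 higher and 0 lower, and the groups were apart for 4. Over all genes outside the segment, 49.0% were above WT, 4.54% were higher at an unadjusted p below 0.05 and 3.84% lower. Groups were apart with Dp16 higher for 0.392% and lower for 0.199%. These shares are the background for the counts of every list. The summed CPM of the list ran from 434 to 515 in WT and from 505 to 542 in Dp16. Without WT replicate 6, 44 of 51 were above WT with a median of 0.21, and 2 were called (Lgals3bp and Ifi27). With all 3 libraries left out, 43 of 51 were above WT with a median of 0.18.

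The 3 called genes were Lgals3bp, a secreted galectin-binding glycoprotein, Ifi27, a small membrane protein, and Bst2 (tetherin), which holds budding viruses at the cell surface. Type I interferon acts on such genes through a promoter element whose core, on either strand, can be written GAAANNGAAA. In the 300 bases from 250 before to 50 after each RefSeq start (build GRCm38.p6), 1131 of 32851 promoters (3.44%) hold this core, and 23 of 48 promoters (47.9%) of the type I list do, with 41 of its genes matched. Of the promoters of genes called higher outside the segment 3.92% hold it. The promoters of Bst2 (chr8:71537423-71537722, minus strand) and Lgals3bp (chr11:118401910-118402209, minus strand) are shown because both genes rose and only the first holds the core, in capitals as 2 overlapping matches. A match is a description, and none in a window says only that these letters are not there. Ifi27 is named only.
Bst2: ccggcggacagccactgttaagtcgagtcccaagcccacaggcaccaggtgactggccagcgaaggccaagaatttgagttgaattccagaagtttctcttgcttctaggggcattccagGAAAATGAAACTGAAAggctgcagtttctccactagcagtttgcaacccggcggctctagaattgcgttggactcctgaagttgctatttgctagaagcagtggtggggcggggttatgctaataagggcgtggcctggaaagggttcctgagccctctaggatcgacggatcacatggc
Lgals3bp: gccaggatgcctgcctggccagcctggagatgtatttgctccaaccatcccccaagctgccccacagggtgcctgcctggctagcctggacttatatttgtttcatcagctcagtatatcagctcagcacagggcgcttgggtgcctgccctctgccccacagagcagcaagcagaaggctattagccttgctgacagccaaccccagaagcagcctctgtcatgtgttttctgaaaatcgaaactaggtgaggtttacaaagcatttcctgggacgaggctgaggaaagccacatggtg

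Lgals3bp (chr11:118392751-118402092) was between 9.94 and 21.5 CPM (median 15.8) in WT and between 22.3 and 28.5 CPM (median 25.05) in Dp16 (a log2 fold change of 0.68 with an SE of 0.109, adjusted p = 0.00181). Ifi27 was between 13.2 and 15.99 CPM (median 14.4) in WT and between 16.31 and 20.3 CPM (median 18.9) in Dp16 (a log2 fold change of 0.37 with an SE of 0.0686, adjusted p = 0.00597). For both the groups were apart, and both calls remained without any 1 library. Bst2 was between 1.66 and 2.56 CPM (median 2.24) in WT and between 2.83 and 3.93 CPM (median 2.99) in Dp16 (a log2 fold change of 0.55 with an SE of 0.128, adjusted p = 0.0492). Its groups were also apart, but its call lay just under the threshold and ended in 11 of the 12 fits without 1 library, with the highest adjusted p, 0.134, without WT replicate 3. With all 3 libraries left out the adjusted p was 0.00518 for Lgals3bp, 0.0159 for Ifi27 and 0.146 for Bst2. Of genes chosen after their values were seen, the ubiquitin-like Isg15 was at 0.45 (SE 0.156, adjusted p = 0.297) and Ifit3 at 0.37 (SE 0.135, adjusted p = 0.362). Both missed the test and overlapped between groups.

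Of 20 interferon gamma GTPases and Irf1 targets, 18 were above WT at a median log2 change of 0.21, 2 at an unadjusted p below 0.05 (both higher), and 0 were called. Irgm1 and Gbp7, GTPases that act against intracellular microbes, are its members of highest CPM, at 0.12 (SE 0.0714, adjusted p = 0.701) and 0.16 (SE 0.104, adjusted p = 0.718). Without WT replicate 6 the median of this list was 0.096, with 17 above WT, without WT replicate 4 it was 0.33, and with all 3 libraries left out it was 0.10, with 15 above WT. The lists of cytokine receptor signalling (12 of 33 above WT, median -0.027) and complement (16 of 23, median 0.045, and 0.018 without WT replicate 6) had no called member.

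MHC class I genes encode molecules that show peptides from inside a cell. Of 24 tested genes of class I and peptide loading, 18 were above WT at a median log2 change of 0.11. The test called 2 higher, H2-D1 and H2-K1, and 7 were higher at an unadjusted p below 0.05. H2-D1 (chr17:35262730-35267499) was between 36.2 and 55.2 CPM (median 43.9) in WT and between 52.4 and 61.2 CPM (median 56.0) in Dp16 (a log2 fold change of 0.37 with an SE of 0.0731, adjusted p = 0.0131). H2-K1 (chr17:33996017-34000347) was between 18.8 and 35.0 CPM (median 25.7) in WT and between 32.1 and 39.2 CPM (median 34.7) in Dp16 (a log2 fold change of 0.45 with an SE of 0.101, adjusted p = 0.0409). Groups overlapped for both, 3 of 6 Dp16 libraries lying above the highest WT library in each. The H2-K1 call ended in 11 of the 12 fits without 1 library (highest adjusted p 0.1201, without Dp16 replicate 4), and neither was called with WT replicates 5 and 6 and Dp16 replicate 3 all left out (adjusted p = 0.135 for H2-D1 and 0.176 for H2-K1). The list's median was then 0.059, with 15 of 24 above WT. These genes have near-identical relatives, so that reads can be split among them.

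Class II genes serve antigen-presenting cells, in brain mainly microglia and border macrophages. Of 11 tested, 10 were above WT at a median log2 change of 0.54, 7 at an unadjusted p below 0.05 (all higher), and the groups were apart for 3. Over all genes outside the segment, 49.0% were above WT, 4.54% higher at an unadjusted p below 0.05 and 0.392% apart with Dp16 higher. The test called H2-DMa (chr17:34119541-34139101), which loads peptides onto class II molecules: it was between 9.26 and 11.05 CPM (median 10.3) in WT and between 11.1 and 14.5 CPM (median 13.2) in Dp16 (a log2 fold change of 0.32 with an SE of 0.0686, adjusted p = 0.0249). Its groups were apart, and the call ended in 8 of the 12 fits without 1 library (highest adjusted p 0.0774, without Dp16 replicate 5), as it did with all 3 libraries left out (0.159). H2-Ab1, a class II beta chain chosen after its values were seen, was between 0.373 and 1.92 CPM (median 1.60) in WT and between 2.11 and 3.31 CPM (median 2.78) in Dp16 (a log2 fold change of 0.89 with an SE of 0.229, adjusted p = 0.0931). The low WT value is replicate 6, and without it the log2 fold change was 0.69 with an adjusted p of 0.0225. It was also called without WT replicate 1 (adjusted p = 0.0456), by DESeq2 (0.00795) and with age as a term (0.0328). With replicate number as a block in the 12 libraries it was called too (edgeR, adjusted p = 0.0151), although replicate numbers are not known to pair samples. Its partner H2-Aa was at 0.64 (SE 0.199, adjusted p = 0.224), and was called without WT replicate 1 (log2 fold change 0.87, adjusted p = 0.0125). Summed over the list, CPM ran from 63.4 (WT replicate 6) to 110 in WT and from 98.5 to 121 in Dp16, and without WT replicate 6 the median was 0.36 with 10 of 11 above WT. With all 3 libraries left out it was 0.38, with 11 above WT.

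Rfx5, a subunit of the complex that binds MHC promoters, fell while these genes lay above WT. It was between 14.5 and 19.1 CPM (median 17.6) in WT and between 11.7 and 15.4 CPM (median 13.7) in Dp16 (a log2 fold change of -0.32 with an SE of 0.0693, adjusted p = 0.0301), and its call ended in 8 of the 12 fits without 1 library (highest adjusted p 0.112, without WT replicate 3). MHC promoters also carry a CCAAT box, bound by the NF-Y complex beside the Rfx5 complex. On either strand, CCAAT occurs in 37.4% of all 32851 promoters, in 16 of 22 class I promoters (72.7%, 20 genes matched) and in 7 of 9 class II promoters (77.8%, 8 genes matched). The promoters of H2-D1 (chr17:35262844-35263143, plus strand) and H2-K1 (chr17:34000284-34000583, minus strand), the 2 class I genes called, are shown with CCAAT or its complement in capitals, a pair in each. The motif is common and its presence describes the window alone.
H2-D1: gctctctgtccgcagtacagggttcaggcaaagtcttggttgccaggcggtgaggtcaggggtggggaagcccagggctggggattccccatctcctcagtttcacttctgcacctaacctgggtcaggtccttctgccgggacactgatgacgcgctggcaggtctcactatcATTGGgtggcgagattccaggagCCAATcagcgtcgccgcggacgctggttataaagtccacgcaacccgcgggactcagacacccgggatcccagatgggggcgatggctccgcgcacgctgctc
H2-K1: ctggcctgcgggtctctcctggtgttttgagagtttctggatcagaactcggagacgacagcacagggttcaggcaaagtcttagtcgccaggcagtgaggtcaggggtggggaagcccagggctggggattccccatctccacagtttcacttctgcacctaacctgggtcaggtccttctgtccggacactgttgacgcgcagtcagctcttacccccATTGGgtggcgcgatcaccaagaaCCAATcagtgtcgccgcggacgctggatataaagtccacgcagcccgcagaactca

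Of 27 tested genes of border macrophages and activated myeloid cells, 4 were called higher and the list as a whole lay close to WT. With 17 of 27 above WT its median log2 change was 0.078, which ran from -0.0035 without WT replicate 6 to 0.20 without WT replicate 2. Its summed CPM ran from 1383 to 2345 (median 1859) in WT and from 1598 to 2017 (median 1788) in Dp16. Lyz2, the lysozyme of myeloid cells (chr10:117277331-117282321), was between 4.70 and 7.99 CPM (median 7.27) in WT and between 9.49 and 11.9 CPM (median 10.8) in Dp16 (a log2 fold change of 0.61 with an SE of 0.0974, adjusted p = 0.00150). The groups were apart, with WT replicate 6 lowest, and the call remained without any 1 library. The other 3 were low: Siglec1, a sialic acid receptor of border macrophages, was from 0.0621 to 0.539 CPM in WT and from 0.480 to 1.38 CPM in Dp16 (a log2 fold change of 1.37, adjusted p = 0.0270). Folr2, a folate receptor of resident macrophages, was from 0.145 to 0.388 CPM and from 0.444 to 0.667 CPM (1.12, adjusted p = 0.0386). The lectin Lgals3 was from 0.166 to 0.474 CPM and from 0.363 to 1.08 CPM (1.28, adjusted p = 0.0398). The 3 calls ended in 6, 9 and 10 of the 12 fits without 1 library, with adjusted p up to 0.0885 (without WT replicate 2), 0.108 (without WT replicate 3) and 0.104 (without WT replicate 2). Without WT replicate 6, Lyz2 and Siglec1 were called and 13 of 27 were above WT. With all 3 libraries left out Lyz2 was called (adjusted p = 0.000923), while Siglec1 (0.132), Folr2 (0.283) and Lgals3 (0.145) were not, and the list's median was 0.098 with 15 above WT.

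Some other called genes known from astrocytes, blood-borne, vascular or barrier cells were of low level as well. Lcn2, the iron-binding lipocalin of reactive astrocytes, ran from 0.0771 to 0.433 CPM in WT and from 0.182 to 1.38 CPM in Dp16 (a log2 fold change of 2.101 with an SE of 0.474, adjusted p = 0.0398), with WT replicate 5 far above the other WT libraries. Its call ended in 8 of the 12 fits without 1 library, with the highest adjusted p, 0.141, without Dp16 replicate 4. Lcn2 was the only gene called among 23 of reactive astrocytes, of which 20 were above WT (median 0.21), and among 26 cytokine and NF-kB target genes, of which 18 were above WT (median 0.078). The reactive astrocyte median was 0.13 without WT replicate 6, with 17 above WT, and Lcn2 was not called (adjusted p = 0.101). With all 3 libraries left out it was 0.14, with 18 above WT, and Lcn2 was called (0.00555). The cytokine median was 0.044 without Dp16 replicate 5. Cd300lg, an endothelial mucin receptor (2.36, adjusted p = 0.0280), Bst1, an ectoenzyme of myeloid cells and stroma (1.40, adjusted p = 0.00907), and Itgb7, a leukocyte integrin (1.02, adjusted p = 0.00344), had at most 52 counts in any library, with the groups apart. Gja5, a connexin of arterial endothelium (0.90, adjusted p = 0.00568), Angptl1 (0.83, adjusted p = 0.0189) and the matrix protein Postn (0.69, adjusted p = 0.0371) were apart too, and the iron reductase Cybrd1 (0.73, adjusted p = 0.0240) overlapped by 1 library. Calls ended without 1 library for Cd300lg (9 of 12 fits, up to 0.0871 without WT replicate 3), Angptl1 (4, up to 0.0644 without WT replicate 2), Postn (8, up to 0.113 without WT replicate 2) and Cybrd1 (7, up to 0.0815 without WT replicate 2). With all 3 libraries left out Gja5 was called (adjusted p = 0.0252), and Cd300lg (0.0837), Bst1 (0.116), Itgb7 (0.0693), Angptl1 (0.174), Postn (0.148) and Cybrd1 (0.202) were not. The 28 brain endothelium genes had a median of 0.055, with 19 above WT, and Gja5 alone was called. Their median was 0.016 without WT replicate 6 and 0.099 without Dp16 replicate 6, and 0.032, with 14 above WT, with all 3 libraries left out. Pericyte genes went from a median of -0.053 to -0.13 and meningeal fibroblast genes from 0.035 to -0.071 when those 3 were left out.

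Of 28 homeostatic microglia genes 18 lay below WT and 10 above, with a median of -0.080. Over all genes outside the segment 49.0% were above WT. By edgeR 0 of the 28 were called, with 4 lower and 1 higher at an unadjusted p below 0.05. The summed CPM ran from 844 to 1297 in WT and from 993 to 1187 in Dp16, WT replicate 6 being lowest, and without that library from 1134 to 1297 in WT. Without WT replicate 6, 26 of the 28 were below WT, with a median of -0.15, and 3 were called lower. The median was -0.035 without WT replicate 4, and -0.16, with 3 of 28 above WT, with all 3 libraries left out. The genes called lower without WT replicate 6 were P2ry12, a purinergic receptor of resting microglia (log2 fold change -0.40, adjusted p = 0.0223), Sall1, a transcription factor of microglial identity (-0.34, adjusted p = 0.0286), and Gpr34, a lipid receptor (-0.44, adjusted p = 0.0191). With all 6 WT libraries they were at -0.29, -0.27 and -0.35, with adjusted p of 0.434, 0.201 and 0.223. Mfge8, a phagocytosis bridging protein on the list of homeostatic astrocytes, likewise moved from -0.39 (adjusted p = 0.0655) to -0.45 (adjusted p = 0.0107) without that library.

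The peptide genes Cort, Crh and Apln rose. Cort, cortistatin of a subset of somatostatin interneurons (chr4:149125034-149126763), was between 5.00 and 8.34 CPM (median 6.42) in WT and between 9.29 and 12.9 CPM (median 11.3) in Dp16 (a log2 fold change of 0.79 with an SE of 0.112, adjusted p = 0.000306). The groups were apart and the call remained without any 1 library. Crh, corticotropin-releasing hormone, was between 4.09 and 6.91 CPM (median 6.22) in WT and between 6.72 and 8.85 CPM (median 8.40) in Dp16 (a log2 fold change of 0.48 with an SE of 0.109, adjusted p = 0.0386), and Crhbp, which binds and holds Crh, was between 16.33 and 19.3 CPM (median 18.2) in WT and between 19.8 and 23.3 CPM (median 21.4) in Dp16 (a log2 fold change of 0.26 with an SE of 0.0588, adjusted p = 0.0395). Groups were apart for Crhbp, and 5 of 6 Dp16 libraries lay above WT for Crh. Both calls ended without single libraries, in 8 of the 12 fits for Crh (up to 0.111, without Dp16 replicate 5) and 9 for Crhbp (up to 0.127, without WT replicate 2). Apln, the peptide apelin (chrX:48025146-48034853), was between 31.4 and 45.9 CPM (median 42.1) in WT and between 45.1 and 61.4 CPM (median 56.8) in Dp16 (a log2 fold change of 0.44 with an SE of 0.0800, adjusted p = 0.00622), with 5 of 6 Dp16 libraries above all WT libraries.

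Of the 29 tested genes of GABAergic interneurons, 23 were above WT at a median log2 change of 0.046 (0.11 without Dp16 replicate 4), and Cort and Crh were called. The peptide genes Sst and Tac2 and the calcium buffer Calb2, chosen after their values were seen, were at 0.10, 0.25 and 0.51 with adjusted p of 0.541, 0.289 and 0.324. Excitatory neuron genes were at 8 of 25 above WT with a median of -0.051 and 0 called, 4 lower and 0 higher at an unadjusted p below 0.05. Their members of highest CPM, the kinase Camk2a and Slc17a7, were at -0.051 (SE 0.0753, adjusted p = 0.932) and -0.046 (SE 0.0648, adjusted p = 0.929). Kcnab3, a beta subunit of voltage-gated potassium channels typical of fast-spiking cells, fell. It was between 61.7 and 96.8 CPM (median 80.1) in WT and between 51.0 and 63.5 CPM (median 58.3) in Dp16 (a log2 fold change of -0.42 with an SE of 0.0843, adjusted p = 0.0163), and its call ended in 3 fits without 1 library (up to 0.0574, without WT replicate 2). Of 43 potassium channel genes 10 were above WT, with a median of -0.080 and Kcnab3 alone called.

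Abca8a, Lcat, Hexa, Rida and Tomm34, which serve separate steps of metabolism and organelle function, also rose, while the lists nearest to them had 0 called genes. Cholesterol synthesis genes were above WT for 13 of 24 (median 0.0038) and nuclear-encoded respiratory chain genes for 26 of 74 (median -0.012). Abca8a, an ABC transporter of lipids (chr11:110025634-110095978), was between 8.05 and 10.8 CPM (median 10.5) in WT and between 12.9 and 16.35 CPM (median 14.8) in Dp16 (a log2 fold change of 0.56 with an SE of 0.0804, adjusted p = 0.000386). Lcat, which esterifies cholesterol in lipoproteins (chr8:105939551-105943382), was between 16.8 and 24.5 CPM (median 22.5) in WT and between 26.3 and 33.4 CPM (median 29.2) in Dp16 (a log2 fold change of 0.43 with an SE of 0.0833, adjusted p = 0.0113). Hexa, a subunit of lysosomal hexosaminidase (chr9:59539540-59565109), was between 43.5 and 48.6 CPM (median 48.2) in WT and between 51.9 and 58.1 CPM (median 55.5) in Dp16 (a log2 fold change of 0.23 with an SE of 0.0416, adjusted p = 0.00441). In all 3 the groups were apart and the calls remained without any 1 library. Rida, which clears reactive imines (chr15:34484021-34495255), was between 17.4 and 26.9 CPM (median 24.4) in WT and between 26.2 and 37.7 CPM (median 33.6) in Dp16 (a log2 fold change of 0.49 with an SE of 0.0997, adjusted p = 0.0172), with 5 of 6 Dp16 libraries above WT. Tomm34, a cytosolic helper of mitochondrial import (chr2:164053540-164071169), was between 72.2 and 82.8 CPM (median 78.7) in WT and between 84.1 and 91.0 CPM (median 86.3) in Dp16 (a log2 fold change of 0.16 with an SE of 0.0344, adjusted p = 0.0249), the smallest fold among the genes called higher, and its groups were apart. Rida was not called without 2 of the libraries (up to 0.0609, without Dp16 replicate 4) and Tomm34 without 6 (up to 0.0887, without WT replicate 2).

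Also higher were the mitochondrial carrier Slc25a34 (0.58, adjusted p = 0.00814), Sec24d of vesicle coats (0.41, adjusted p = 0.00355) and Ggact, which cleaves gamma-glutamyl amines (0.32, adjusted p = 0.0107), all called without any 1 library. With WT replicates 5 and 6 and Dp16 replicate 3 all left out, Slc25a34 (0.0283) and Sec24d (0.0260) were called and Ggact (0.146) was not. Coasy of coenzyme A synthesis (0.30, adjusted p = 0.0155), the D-aspartate oxidase Ddo (0.51, adjusted p = 0.0323), the lipoxygenase Alox8 (0.46, adjusted p = 0.0346) and the lipid droplet protein Cideb (0.38, adjusted p = 0.0226) were not called without 1, 8, 9 and 5 libraries. Their highest adjusted p were 0.0604 (WT replicate 3), 0.1001 (Dp16 replicate 4), 0.0899 (Dp16 replicate 6) and 0.0686 (Dp16 replicate 1). Groups were apart for Slc25a34, Ggact, Coasy, Alox8 and Cideb.

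Atf5, a transcription factor of the mitochondrial and integrated stress responses (chr7:44812256-44816658), was between 25.3 and 33.1 CPM (median 29.4) in WT and between 34.2 and 41.7 CPM (median 35.7) in Dp16 (a log2 fold change of 0.33 with an SE of 0.0712, adjusted p = 0.0286), with the groups apart. Its call ended without any of 6 libraries (up to 0.0932, without Dp16 replicate 4). Of the 33 tested genes of the unfolded protein and integrated stress response, 18 were above WT with a median of 0.014, and Atf5 alone was called. Selenov, a selenoprotein best known from testis (chr7:28284652-28291186), was between 0.414 and 0.675 CPM (median 0.431) in WT and between 0.949 and 2.12 CPM (median 1.44) in Dp16 (a log2 fold change of 1.58 with an SE of 0.189, adjusted p = 2.78e-05), with the groups apart and no call lost without 1 library. Of 26 selenoprotein genes 13 were above WT, with a median of 0.0028.

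Cbs, cystathionine beta-synthase, the first enzyme of transsulfuration (chr17:31608894-31637238), fell. It was between 26.6 and 33.8 CPM (median 32.7) in WT and between 19.1 and 25.03 CPM (median 20.6) in Dp16 (a log2 fold change of -0.56 with an SE of 0.0925, adjusted p = 0.00212). The groups were apart and the call remained without any 1 library. Of 36 genes of transsulfuration and one-carbon metabolism 23 were above WT (median 0.022), and Cbs and, higher, Folr2 were called. The human orthologue of Cbs lies on chromosome 21, and the mouse gene is on chromosome 17, outside the duplication. Cth, the next enzyme of the pathway, was at 0.23 (SE 0.133, adjusted p = 0.671). Of 43 tested mouse genes of chromosomes 10 and 17 whose human orthologues lie on chromosome 21, 21 were above WT with a median of -0.00071, and Cbs alone was called. The citrate transporter Slc13a5 was between 15.7 and 22.2 CPM (median 19.2) in WT and between 11.3 and 16.4 CPM (median 13.4) in Dp16 (a log2 fold change of -0.48 with an SE of 0.0788, adjusted p = 0.00198), called without any 1 library. Cyp11a1, which starts steroid synthesis, was between 2.18 and 3.85 CPM (median 2.86) in WT and between 1.22 and 2.39 CPM (median 1.76) in Dp16 (a log2 fold change of -0.72 with an SE of 0.157, adjusted p = 0.0309), and was not called without 7 of the libraries (up to 0.113, without WT replicate 2).

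Among regulators that fell, the transcription factor Tbx1 (chr16:18580979-18590671), on chromosome 16 but far before the segment, was between 1.57 and 2.29 CPM (median 1.85) in WT and between 0.280 and 0.827 CPM (median 0.542) in Dp16 (a log2 fold change of -1.80 with an SE of 0.295, adjusted p = 0.00198). Gli1, the transcription factor and read-out gene of hedgehog signalling (chr10:127329882-127341974), was between 2.86 and 4.12 CPM (median 3.04) in WT and between 1.13 and 2.46 CPM (median 1.67) in Dp16 (a log2 fold change of -0.90 with an SE of 0.146, adjusted p = 0.00175). In both the groups were apart, and both were called without any 1 library. Of 21 tested hedgehog genes 8 were above WT with a median of -0.057, and 5 were lower and 1 higher at an unadjusted p below 0.05. Ptch1, the hedgehog receptor and also a target, chosen after its values were seen, was between 62.6 and 83.5 CPM (median 72.6) in WT and between 54.1 and 68.8 CPM (median 60.2) in Dp16 and missed the test (a log2 fold change of -0.25 with an SE of 0.0655, adjusted p = 0.114). DESeq2 (adjusted p = 0.0405), limma-voom with quality weights (0.0268) and edgeR with replicate number as a block in the 12 libraries (0.0261) called it. Replicate numbers are not known to pair samples, so that block may be an arbitrary grouping. Of 40 Wnt genes 14 were above WT (median -0.034, 0 called by edgeR, 6 lower and 1 higher at an unadjusted p below 0.05).

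**Figure D3:**
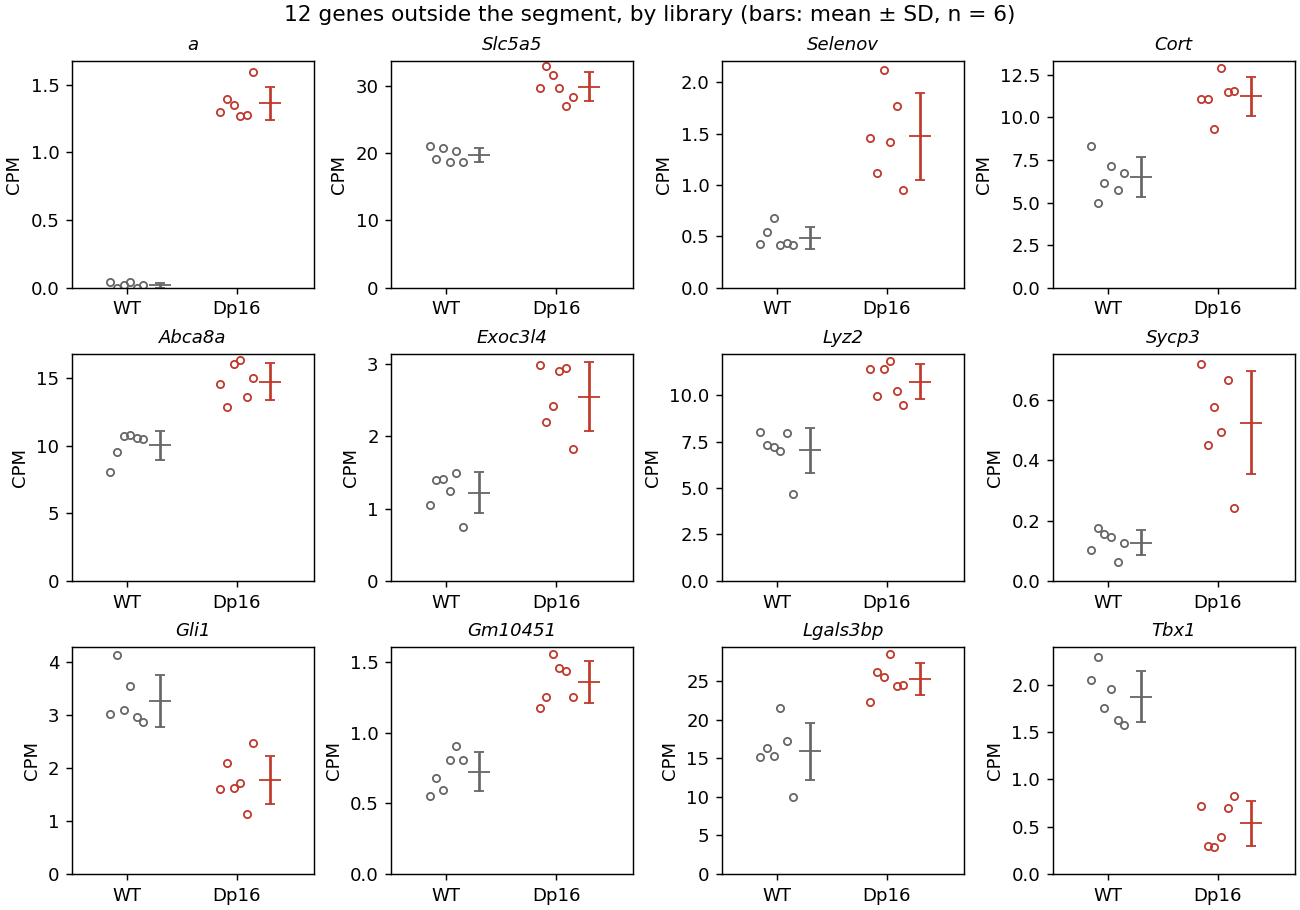
CPM by library (y axis, from 0) in WT and Dp16 for the 12 called genes of smallest p outside the segment. Open points are libraries and the bars beside them the mean ± SD (n = 6). In each of the 12 panels no Dp16 library falls among the WT libraries: Gli1 and Tbx1 are lower in Dp16 and the other 10 higher.

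The called genes of highest level that fell changed by small amounts. Rmnd5a, a subunit of a ubiquitin ligase (chr6:71388634-71440637), was between 139.9 and 152 CPM (median 146) in WT and between 117 and 138 CPM (median 123) in Dp16 (a log2 fold change of -0.22 with an SE of 0.0448, adjusted p = 0.0172). The kinase Pak6 (chr2:118663303-118698020) was between 104 and 136 CPM (median 116) in WT and between 84.3 and 111 CPM (median 101) in Dp16 (a log2 fold change of -0.24 with an SE of 0.0515, adjusted p = 0.0258). Ypel2 (chr11:86936425-86993707) was between 55.6 and 63.5 CPM (median 59.4) in WT and between 43.5 and 54.3 CPM (median 49.7) in Dp16 (a log2 fold change of -0.26 with an SE of 0.0607, adjusted p = 0.0492). Groups were apart for Rmnd5a and Ypel2, and 4 of 6 Dp16 libraries lay below WT for Pak6. Brpf3, a scaffold of histone acetyltransferases (chr17:28801090-28839949), was between 44.1 and 52.6 CPM (median 47.5) in WT and between 39.0 and 43.9 CPM (median 39.9) in Dp16 (a log2 fold change of -0.23 with an SE of 0.05004, adjusted p = 0.0249). Zfp281, a zinc finger factor (chr1:136624901-136630053), was between 41.6 and 47.6 CPM (median 44.1) in WT and between 36.1 and 40.5 CPM (median 37.8) in Dp16 (a log2 fold change of -0.22 with an SE of 0.0494, adjusted p = 0.0386). Pik3r3, a regulatory subunit of PI3-kinase (chr4:116221618-116303056), was between 39.3 and 41.1 CPM (median 39.8) in WT and between 30.1 and 36.6 CPM (median 33.2) in Dp16 (a log2 fold change of -0.26 with an SE of 0.0488, adjusted p = 0.00736). In these 3 every Dp16 library lay below every WT library. Pik3r3 alone of the 6 was called without any 1 library, and with WT replicates 5 and 6 and Dp16 replicate 3 all left out its adjusted p was 0.114. The others were not called without 4 (Rmnd5a, up to 0.0610, without Dp16 replicate 6), 7 (Pak6, up to 0.0793, without WT replicate 5), 10 (Ypel2, up to 0.142, without Dp16 replicate 4), 6 (Brpf3, up to 0.0885, without WT replicate 2) and 9 libraries (Zfp281, up to 0.1098, without Dp16 replicate 3).

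The remaining genes called lower were Zfp282 (log2 fold change -0.24), the deglutamylase Agbl4 (-0.27), the ubiquitin ligase subunit Fbxo32 (-0.43), the tetraspanin Tspan11 (-0.45), the noncoding models Gm28800 (-0.63) and Gm17322 (-0.67) and the small nucleolar RNA Snora65 (-0.91), whose level in polyadenylated RNA is uncertain. Fbxo32 and Cyp11a1 were the genes called among 22 of the steroid and glucocorticoid response, of which 15 were above WT. The median of that list was 0.11 and depended on single libraries, being 0.0073 without Dp16 replicate 3 and 0.20 without WT replicate 5. All but Gm17322 were not called without 7 to 11 of the libraries. Their highest adjusted p were 0.116 for Zfp282 (without WT replicate 2), 0.123 for Agbl4 (without Dp16 replicate 5), 0.135 for Fbxo32, 0.0885 for Tspan11 and 0.113 for Gm28800 (each without WT replicate 2), and 0.0611 for Snora65 (without WT replicate 5).

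Sycp3, Rnf17 and Rec8, known from the germ line, changed in both directions. Sycp3, of the axis of meiotic chromosomes (chr10:88459569-88473236), had 3 to 9 counts in WT and 12 to 45 in Dp16 and was between 0.0618 and 0.175 CPM (median 0.135) in WT and between 0.242 and 0.720 CPM (median 0.536) in Dp16 (a log2 fold change of 2.02 with an SE of 0.324, adjusted p = 0.00153). Rnf17, a tudor protein of germ cells, was from 0.289 to 0.855 CPM and from 0.968 to 1.66 CPM (log2 fold change 1.12, adjusted p = 0.00565). Rec8, the meiotic cohesin, fell, from 2.00 to 3.69 CPM in WT and from 0.831 to 2.08 CPM in Dp16 (-1.05, adjusted p = 0.0140). Groups were apart for Sycp3 and Rnf17 and overlapped by 1 library for Rec8. With WT replicates 5 and 6 and Dp16 replicate 3 all left out, Sycp3 (adjusted p = 0.0361) and Rec8 (0.000414) were called and Rnf17 (0.0649) was not. Of 23 tested meiosis and germ line genes 16 were above WT with a median of 0.052 (0.15 without WT replicate 6), and these 3 were the ones called.

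Also called higher were Exoc3l4, related to exocyst subunits (chr12:111417017-111431678), which was between 0.746 and 1.48 CPM (median 1.32) in WT and between 1.82 and 2.98 CPM (median 2.66) in Dp16 (a log2 fold change of 1.06 with an SE of 0.167, adjusted p = 0.00132), and the noncoding model Gm10451 (chr12:76444497-76451336), which was between 0.552 and 0.907 CPM (median 0.744) in WT and between 1.18 and 1.56 CPM (median 1.35) in Dp16 (a log2 fold change of 0.91 with an SE of 0.149, adjusted p = 0.00178). Both had groups apart and were called without any 1 library. The adhesion molecule Kirrel2 (0.38) and the noncoding model Gm48678 (1.69) also kept their calls. The muscle methyltransferase Smyd1 (0.79), Zfp982 (0.65), Plekhd1 (0.64), Glipr2 (0.60), Dlec1 (0.50), the ubiquitin ligase Trim17 (0.40) and Gm31614 (1.29) were not called without 5 to 9 libraries. Their highest adjusted p were 0.0629 (Smyd1) and 0.109 (Zfp982) without WT replicate 1, 0.0832 (Plekhd1) without WT replicate 3, 0.134 (Trim17) without WT replicate 2, and 0.0860 (Glipr2), 0.0977 (Dlec1) and 0.137 (Gm31614) without Dp16 replicate 4.

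Some lists had most members on one side of WT with no gene called. Over all genes outside the segment 49.0% were above WT, with 4.54% higher and 3.84% lower at an unadjusted p below 0.05. Of 54 cytosolic ribosomal protein genes 1 was above WT, with a median of -0.088, 0 called by edgeR and 6 lower and 0 higher at an unadjusted p below 0.05. Their summed CPM overlapped, from 8005 to 10483 in WT and from 8014 to 9650 in Dp16, with WT replicate 6 lowest, and the median was -0.13 without that library and -0.059 without WT replicate 4. Rpl4 and Rplp1, its members of highest CPM, were at -0.035 (SE 0.0481, adjusted p = 0.926) and -0.11 (SE 0.0722, adjusted p = 0.717). Of 19 circadian clock genes 3 were above WT (median -0.090, 4 lower at an unadjusted p below 0.05), and the clock output factors Tef and Hlf were at -0.058 (SE 0.0502, adjusted p = 0.835) and -0.032 (SE 0.0819, adjusted p = 0.967). Of 30 immediate early genes of neuronal activity 7 were above WT (median -0.14, 1 lower at an unadjusted p below 0.05). The median was -0.066 without WT replicate 6, -0.074 without Dp16 replicate 3 and -0.019, with 14 of 30 above WT, with all 3 libraries left out. Egr1 and Arc, which rise after synaptic activity, were at -0.14 (SE 0.171, adjusted p = 0.913) and -0.30 (SE 0.325, adjusted p = 0.892), and varied between libraries from 208 to 574 CPM for Arc.

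The ependyma and motile cilia list lay above WT for 21 of 23 genes (median 0.25, 6 higher and 1 lower at an unadjusted p below 0.05), with summed CPM from 45.6 to 59.3 in WT and from 49.5 to 71.2 in Dp16. Its members of highest CPM, the ciliary regulator Foxj1 and the dynein gene Dnah5, were at 0.15 (SE 0.0899, adjusted p = 0.694) and 0.11 (SE 0.174, adjusted p = 0.939). Of 9 red blood cell genes 6 were above WT (median 0.49, 3 higher at an unadjusted p below 0.05). Bpgm, an enzyme of red cell glycolysis also made in brain, was at -0.061 (SE 0.0523, adjusted p = 0.834). The ependyma median was 0.20, with 20 of 23 above WT, with all 3 libraries left out. The part of neighbouring tissue in these values was not tested. Lists of oligodendrocytes and their precursors, homeostatic astrocytes, pericytes, meningeal fibroblasts, striatum, lymphocytes, transmitter receptors, synaptic vesicles, calcineurin, protocadherins, redox defence, heat shock, respiration, cholesterol synthesis, proliferation, histones and App processing had 0 genes called by edgeR, with medians from -0.10 (proliferation) to 0.035 (meningeal fibroblasts).

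**Figure D4:**
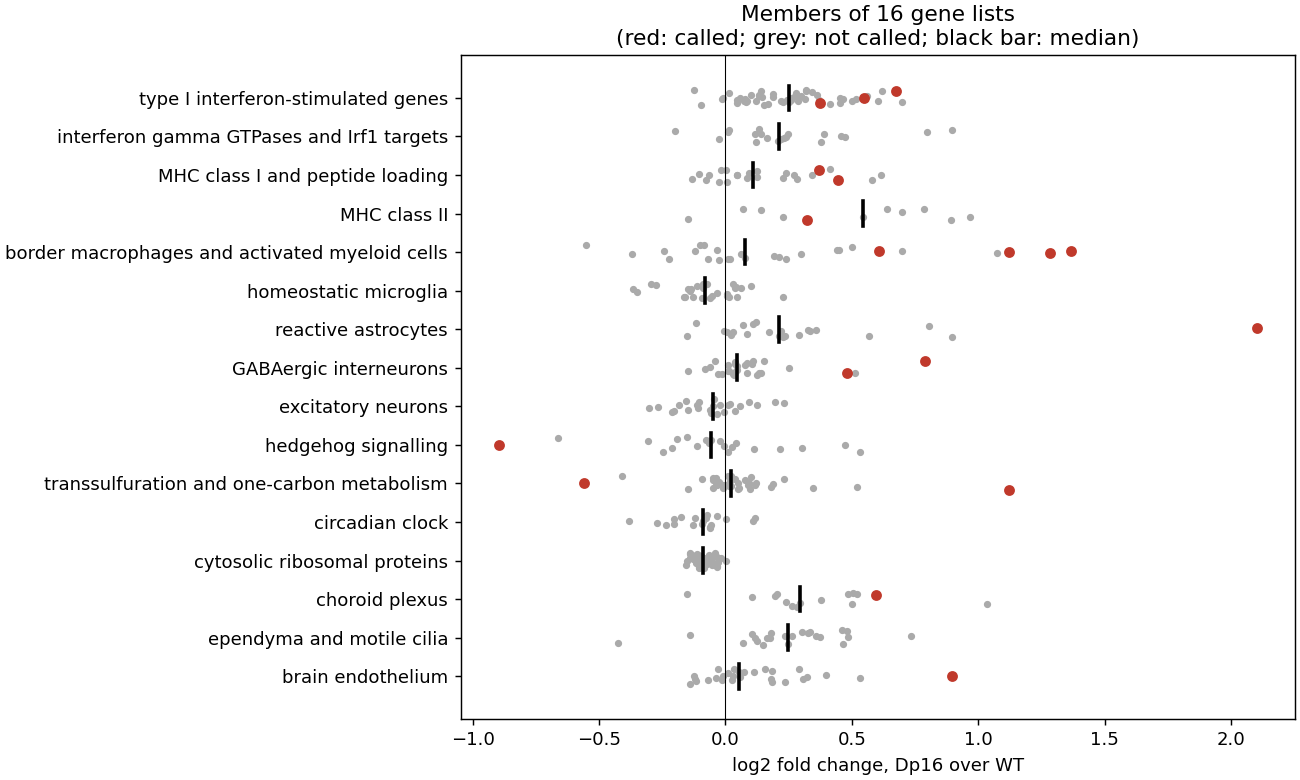
Log2 fold change, Dp16 over WT (x axis), of each tested member of 16 gene lists outside the segment. Red points were called, grey points were not, and the black bar is the list's median. Interferon and MHC lists lie to the right of 0, and ribosomal proteins form a narrow band just left of it. Some lists with a called gene, such as hedgehog signalling and brain endothelium, have a median near 0.

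The means of 3 Dp16 and 3 WT animals were compared within each sex, in 1 fit of all 18 libraries. Males gave 27 called genes outside the segment (0.145%) and females 6 (0.0323%). Of the 72 genes called in both sexes together, 22 were called in males alone and 5 in females alone, and all 72 had the same sign in both sexes. The 72 were called on these same animals, so equal signs follow largely from that choice and are no separate evidence. The difference between sexes itself was tested by an interaction term: 0 of 18717 genes were called (0.0%) by edgeR, and also 0 by DESeq2 and limma-voom, with 577 (3.08%) at an unadjusted p below 0.05. Of the 72, 5 were at an unadjusted p below 0.05. These were Smyd1, Zfp982, Glipr2, Apln and Ddo, each with the larger log2 fold change in males, as for Smyd1 (1.21 in males, 0.35 in females) and Apln (0.61 and 0.27). The genes of smallest interaction p were Sp3os, a noncoding model (0.36 in males and -0.36 in females), the protocadherin Pcdha8 (-1.72 and 1.24) and the matrix protein Tnn (-0.84 and 0.82). Each had an adjusted p of 1 for the interaction by edgeR's quasi-likelihood test.

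**Figure D5:**
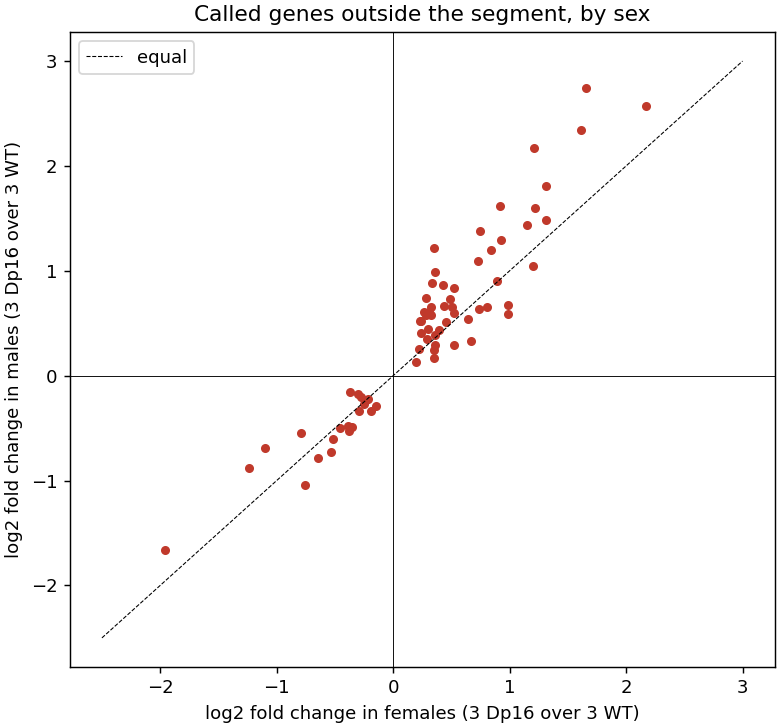
Log2 fold change, Dp16 over WT, in females (x axis) and males (y axis), 3 against 3 animals each, for the called genes outside the segment except agouti. All points lie in the quadrants of equal sign, which follows largely from calling the genes on these same animals of both sexes together. The dashed line marks equal change.

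Set against Dp16_2xIFNRs, which shares the duplication, Dp16 differed in 4 of the 115 segment genes (3.48%), the receptor genes Ifnar1 (log2 difference 0.50), Ifnar2 (0.58), Ifngr2 (0.56) and Il10rb (0.54), and in 0 of 18602 genes outside it (0.0%) by edgeR's quasi-likelihood test, with 404 at an unadjusted p below 0.05. This comparison shares the Dp16 libraries with the one against WT. For the interferon and MHC genes called above, the log2 difference of Dp16 from Dp16_2xIFNRs was 0.087 for Lgals3bp, 0.068 for Ifi27, 0.057 for Bst2, -0.046 for H2-D1, -0.042 for H2-K1 and 0.19 for H2-DMa, against 0.68, 0.37, 0.55, 0.37, 0.45 and 0.32 from WT. The gene a differed by -0.011 (SE 0.18) and Cbs by 0.21 (SE 0.0933), and all 8 had an adjusted p of 1. The difference for H2-DMa had an SE of 0.0681. Such an adjusted p does not show that levels were equal. Of the 72 genes called against WT, 6 were at an unadjusted p below 0.05 here, beside the 404 of all 18602.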

How the data were processed

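Cortical RNA of 6 WT, 6 Dp16 and 6 Dp16_2xIFNRs libraries was measured by RNA-seq. TRIzol extraction, poly-A enrichment, strand-specific libraries and paired reads on a NovaSeq are stated per the labels' protocols. The submitters' processing notes name bcl2fastq, FastQC 0.11.5, HISAT2 2.1.0, SAMtools 1.5, HTSeq 0.6.1 and build GRCm38. How counting treated strand and reads with several matches is not given in the sources used here. The authors deposited raw counts per gene and, separately, RPKM values, and in a check of 31735 genes the RPKM equalled count per total and per length within a relative 1e-06.

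Counts of all 18 libraries were fitted with edgeR 4.0.16 in R 4.3.3 (filterByExpr by group with a minimum count of 10, TMM, robust quasi-likelihood F test, genotype and sex as terms, 14 residual degrees of freedom). The common biological coefficient of variation was 12.2%. The SE is the size of the log2 fold change over the square root of F. Adjusted p-values are Benjamini-Hochberg over 18717 genes, with calls at 0.05. The segment runs on chromosome 16 from Lipi to Zbtb21 (75540514 to 97962622, GRCm38).

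The members and gene lists were chosen with earlier results of these data known. Named genes follow a rule: each gene called outside the segment, with library ranges for the 8 of highest mean CPM in each direction and the 12 of smallest p; in the segment the 6 called of highest RPKM and the 3 highest and 3 lowest folds at 1 CPM or more; up to 3 called members of a list, or 2 of highest CPM. Genes named beyond it (H2-Ab1, H2-Aa, Isg15, Ifit3, P2ry12, Sall1, Gpr34, Mfge8, Ptch1, Sst, Calb2, Tac2 and Cth) were chosen after their values were seen. The 48 lists leave out members inside the segment. Values of some single genes, including 1 that the rule names, are not reported here.

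Alternatives were DESeq2 1.42.0, RLE factors, TMM without the segment's genes, limma-voom 3.58.1 with and without quality weights, limma on log2(RPKM + 0.1), other filters on low counts, no sex term, age as a term, the 12 libraries alone, a replicate block, and leaving out each library. Leaving out the libraries that stood apart together was added after seeing the data. The fits were tested on simulated data. No 2 libraries held the same counts at more than 1.68% of genes.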

Additional observations from a re-analysis of the deposited data

Results flagged for a closer look

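In 250 groups of 6 libraries, taken over the named genes and the library totals, 11 held a library that stood far from the other 5. Chance flags about 1 group in 20, so flags were no more frequent than chance gives. WT replicate 6 was the low library for Bpgm at 45.9 CPM, Cideb at 3.44 CPM, H2-Ab1 at 0.373 CPM, Lyz2 at 4.70 CPM and P2ry12 at 27.7 CPM. WT replicate 4 was the high library for Ifit3 at 9.48 CPM and for Tef at 366 CPM. Gm9843 was high in WT replicate 3 at 8.64 CPM, and Lcn2 in WT replicate 5 at 0.433 CPM. In Dp16, replicate 3 was high for Clic6 at 19.9 CPM and replicate 4 low for Ttc3 at 1276 CPM.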

How the results depend on the processing

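Inside the segment the calls numbered 61 to 70 under every setting, all higher, and the median log2 fold change was 0.57 with no filter on low counts and 0.54 to 0.56 with 1 library left out. The count outside the segment depended on the setting. It was 180 by DESeq2 (121 higher, 59 lower), which held all 72 calls of edgeR, 37 with the 12 libraries alone (27 and 10), and 46 without WT replicates 5 and 6 and Dp16 replicate 3 together. With 1 library left out it ran from 38 (without WT replicate 2) to 79 (without Dp16 replicate 2), and was 41 without Dp16 replicate 4. Quality weights in limma-voom gave 62 higher and 45 lower. Age as a term gave 52 and 17, and the RPKM fit 59 and 17. Replicate numbers did not pair the samples throughout (correlations of same-numbered deviations from -0.18 to 0.43), and not every library correlated best with its own number. Column names of some libraries share a middle number across genotypes. WT replicate 1 and Dp16 replicate 1, the pair at 0.43, share it and matched each other best. What that number stands for is not stated, and it was not modelled. The replicate block gave 101 calls outside the segment, 49 of them among the 72, 67 in the segment and a segment median of 0.55. The sex interaction had 0 calls in each setting fitted, with 1 library left out as well (0 to 0). Named genes that changed sign were not called with all libraries. With 1 library left out, log2 fold changes ran from -0.057 to 0.048 for Gm9843 (0.012 without Dp16 replicate 5), from -0.068 to 0.020 for Gbe1 (0.0079 without Dp16 replicate 4), from -0.081 to 0.015 for Robo1, from -0.093 to 0.025 for Hlf (0.013 without WT replicate 1) and from -0.11 to 0.0025 for A630089N07Rik. Dnah5 was at -0.00052 with quality weights. Without WT replicate 5 and Dp16 replicate 3, Vgll3 (0.25 with all libraries) was at -0.013 and A630089N07Rik at 0.019. With WT replicate 6 also left out they were at -0.0038 and 0.059, Dnah5 at -0.017 and Egr1 (-0.14 with all libraries) at 0.0043. The cause of these shifts was not tested. Depth limits the precision of low genes, and 15 called genes had a mean below 1 CPM.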

Other observations

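Without WT replicate 6, a pair of further list members passed the test, as values chosen after they were seen. Sox4, a transcription factor of immature neurons, moved from -0.25 (adjusted p = 0.179, edgeR) to -0.30 (adjusted p = 0.0303). Vamp1, a synaptic vesicle protein, moved from 0.21 (adjusted p = 0.0690, edgeR) to 0.26 (adjusted p = 0.00801).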
